A study of Homo sapiens with 4 samples.

Results

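The genes of the BCL2 family that set the balance between survival and death at the mitochondrion were examined in U87MG, an established human glioblastoma cell line, after silencing of CASP2, the gene of the protease caspase-2. The 10 genes were chosen by name and not by their values, although earlier results of these data were known. They comprise 3 anti-apoptotic genes (BCL2, BCL2L1 and MCL1), 2 effectors (BAX and BAK1) and 5 BH3-only genes (BID, BAD, BCL2L11, BBC3 and PMAIP1). Each is represented by 1 probe set (several short probes whose signals are combined) that carries its symbol alone, so 10 of the 19158 probe sets with 1 symbol and of 32321 in all are described. RNA came from 4 samples of 1 cell line, 2 transfected with a control siRNA and 2 with a siRNA against CASP2, and the sample labels call the samples of each group biological replicates. The labels name Dharmacon as the supplier of the oligos, and in the methods of the study the control oligo of that supplier is a mutated form of the CASP2 oligo. No group received a drug or another death stimulus. No source used here gives the time from transfection to RNA isolation.

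The proteins of this family meet at the outer membrane of mitochondria. BAX and BAK form the openings through which cytochrome c escapes to trigger caspase-9, the anti-apoptotic proteins hold them in check, and the BH3-only proteins either occupy the anti-apoptotic proteins or activate the effectors directly. Caspase-2 is tied to this step because it can cleave BID into a truncated form that activates BAX and BAK. Glioblastoma cells are known to rely on MCL1 and on BCL-XL, the product of BCL2L1. Much of the control of these proteins, such as the cleavage of BID, the phosphorylation of BAD and the turnover of MCL1, takes place after transcription and cannot be seen in mRNA.

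The silencing was visible in the targeted gene. The log2 value of CASP2 was 10.74 and 10.69 on the control arrays and 8.79 and 8.52 on the silenced arrays. This was a 4.17-fold lower level (log2 fold change -2.06, SE 0.13). By limma its unadjusted p was 4.0e-05 and its adjusted p over all probe sets was 0.9999. With 2 arrays per group, even a change of this size thus missed the adjusted threshold. In bulk RNA, a smaller number of expressing cells and a lower amount of RNA per cell cannot be told apart. The array medians lay between 6.18 and 6.28. The silenced arrays differed from each other more than the control arrays did, with a standard deviation of the difference over all probe sets of 0.348 against 0.205, and the number of arrays limits the precision of every value given here. Of the glial and mesenchymal markers, 3 of 8 (SOX2, OLIG2 and S100B) lay below the median level of all probe sets, and the astrocytic marker GFAP, at a control log2 value of 6.53, lay just above it. VIM (vimentin), CD44 and FN1 (fibronectin) had control log2 values of 13.04, 12.95 and 11.90. Of 12 markers of blood, endothelial, epithelial and neuronal cells, 11 lay below that median. The exception was the neuronal marker SNAP25, at a control log2 value of 8.45, above that of GFAP.

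None of the 10 genes passed the test. The log2 fold changes (mean of the CASP2 siRNA arrays minus mean of the control siRNA arrays) ranged from -0.16 for BCL2 to 0.20 for BAK1, with a median of 0.048. The median over all probe sets was 0.0022, and 82.7% of all probe sets had a change no larger in size than that of BAK1. By limma, 0 of the 10 had an adjusted p under 0.05 and 0 had an unadjusted p under 0.05, against 0% and 3.03% of all probe sets, and the methods' t-test called 0 at either level, against 0% and 0.309% of all probe sets. The adjusted p was 0.9999 for each gene in limma. Applied to the limma fit, the study's own cut-offs (more than 1.5-fold and an unadjusted p under 0.05) called 0 of the 10 genes and 0.693% of all probe sets. A p that misses the threshold does not show that a gene was unchanged, so the intervals are given. For 8 of the 10 genes the 95% interval of the limma fit excluded a 1.5-fold change in either direction. The exceptions were BAK1, whose interval reached 1.51-fold, and BBC3, whose interval reached 1.79-fold. That fit draws each variance toward a value common to all probe sets (2.466 prior beside 2 residual degrees of freedom). The methods' t-test, which uses a minimum standard deviation instead, has wider intervals for these genes, so the count of 8 holds for the limma fit only.

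**Figure D1:**
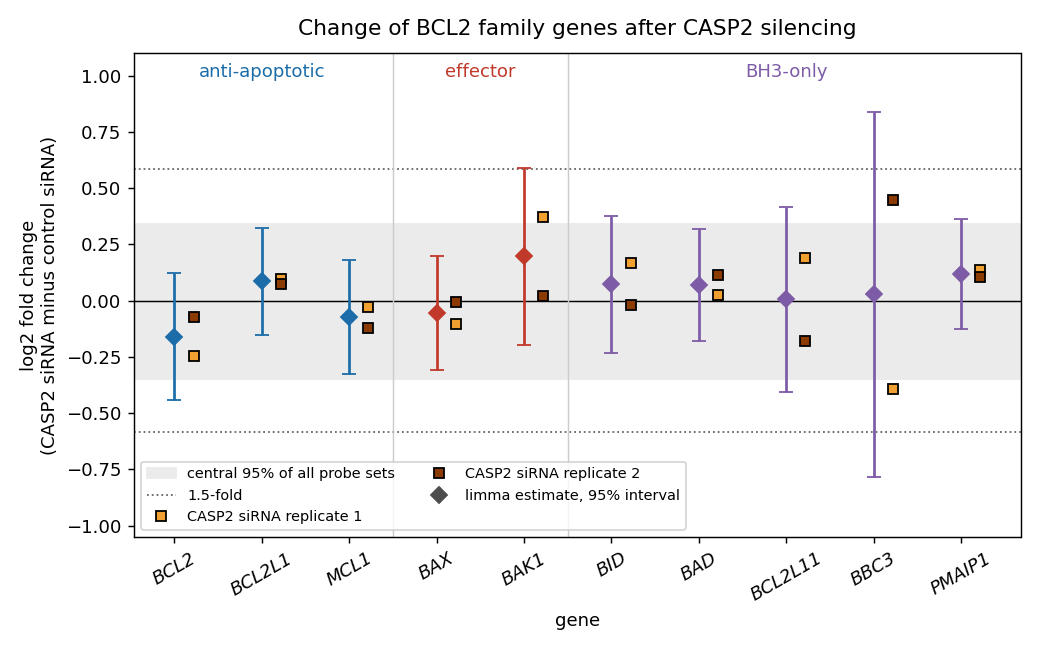
The y axis gives the log2 fold change after CASP2 silencing for the 10 BCL2 family genes (x axis, by role). Diamonds are limma estimates with 95% intervals as bars, squares are the 2 silenced arrays relative to the mean of the control arrays, the grey band holds the central 95% of all probe sets (-0.35 to 0.34) and dotted lines mark 1.5-fold. All 10 estimates lie inside the band, each interval includes 0, and the squares of BBC3 lie farthest apart.

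The 2 groups of arrays overlapped for 4 genes, BAX, BID, BCL2L11 and BBC3. The silenced arrays stood higher than either control for 4 genes (BCL2L1, BAK1, BAD and PMAIP1), where 14.5% of all probe sets did so, and lower for 2 genes (BCL2 and MCL1), where 15.1% did. With each array centred on its median, these counts were 2 (BAD and PMAIP1) and 2 (BCL2 and BAX). The shares of all probe sets were then 11.1% and 14.7%. With 2 arrays a group, the lowest p of an exact permutation test (two-sided) is 0.333, so such a separation is a description only.

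**Figure D2:**
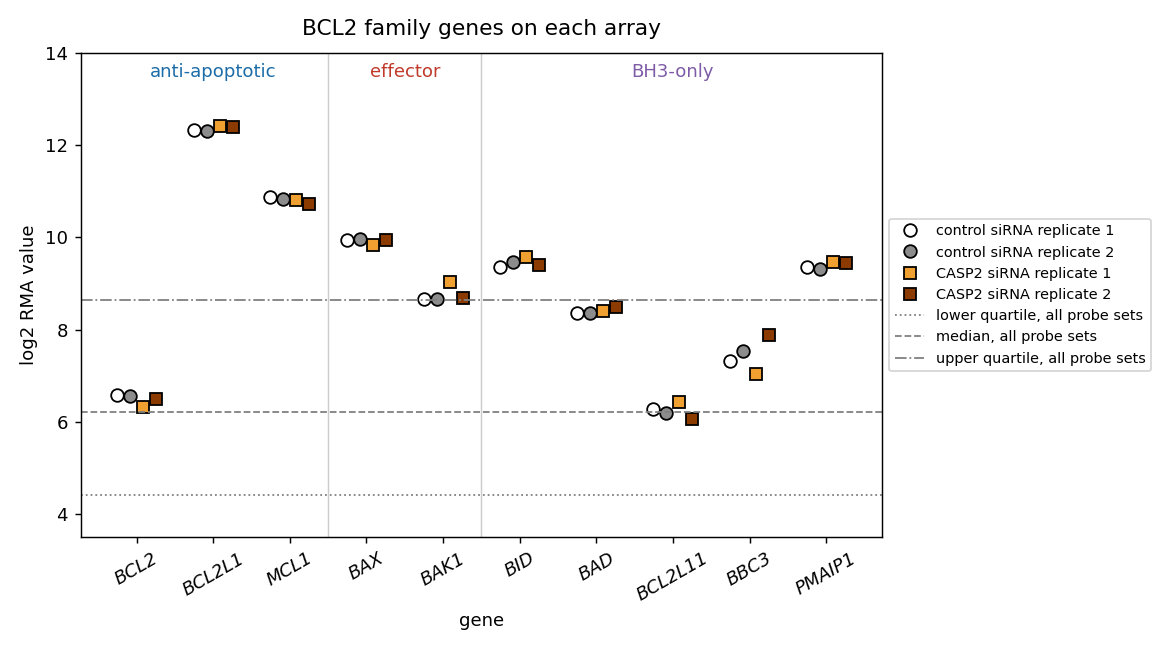
Log2 RMA value (y axis) of the 10 BCL2 family genes (x axis, by role) on each array, with circles for control siRNA and squares for CASP2 siRNA. Horizontal lines mark the quartiles of all probe sets. The points of a gene lie close together for BCL2L1 (12.31 to 12.41) and spread widely for BBC3 (7.03 to 7.87).

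Among the anti-apoptotic genes, BCL2 and MCL1 had lower values in the silenced cells and BCL2L1 had higher ones. BCL2, the founding member of the family, was at 6.58 and 6.57 on the control arrays and at 6.33 and 6.50 on the silenced arrays (log2 scale). Both silenced arrays lay below both controls, at -0.25 and -0.073 relative to the control mean. The log2 fold change of BCL2 was -0.16 (SE 0.11, 95% interval -0.44 to 0.12), a difference within the error of the fit. MCL1, which encodes a short-lived guardian that binds BAK and NOXA, was at 10.87 and 10.82 on the control arrays and at 10.82 and 10.72 on the silenced arrays. CASP2 siRNA replicate 1 lay next to control siRNA replicate 2, so the groups of MCL1 barely parted, and under median centring they overlapped. Its log2 fold change was -0.075 (SE 0.095, interval -0.33 to 0.18). BCL2L1 was at 12.32 and 12.31 on the control arrays and at 12.41 and 12.39 on the silenced arrays. In the deposited values it had the narrowest gap between the silenced arrays of the 10 genes (0.021), and its log2 fold change was 0.086 (SE 0.089, interval -0.15 to 0.32). With arrays centred on their medians the log2 fold change of BCL2L1 was 0.066 and its groups overlapped. The median log2 fold change of the 3 anti-apoptotic genes was -0.075.

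The effectors lay on opposite sides of 0. BAX, which moves from the cytosol to mitochondria when activated, was at 9.93 and 9.96 on the control arrays and at 9.84 and 9.94 on the silenced arrays. CASP2 siRNA replicate 2 fell between the controls, and the log2 fold change of BAX was -0.054 (SE 0.095, interval -0.31 to 0.20). BAK1, whose product resides in the mitochondrial membrane, was at 8.66 on both control arrays and at 9.03 and 8.68 on the silenced arrays. CASP2 siRNA replicate 1 stood 0.37 above the control mean and replicate 2 only 0.020. The log2 fold change of BAK1, 0.20 (SE 0.15, interval -0.20 to 0.59), was the largest increase among the 10 genes and rested on replicate 1, since without that array it was 0.020. The median of the 2 effectors was 0.071.

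The upstream sequences of the effectors are shown because these genes, which share a function, differ in them. The RefSeq promoter table (GRCh38.p14), which gives 250 bases before and 50 after each gene start, holds 9 of the 10 genes with 15 promoters. The palindrome CACGTG, known as an E-box and bound by factors such as MYC and USF, was searched on both strands after the expression values were seen, as was CCAAT, the box bound by NF-Y, and also the Sp1-type box GGGCGG. The BAX promoter (chr19:48954625-48954924, plus strand) held 4 copies of CACGTG, while the BAK1 promoter (chr6:33580227-33580526, minus strand) held 0. At least 1 copy stood in 7.26% of the 35116 promoters of the table, and 5 promoters held 4 or more, a count set by what BAX held. Both are printed 5′ to 3′ with CACGTG in capitals.
BAX: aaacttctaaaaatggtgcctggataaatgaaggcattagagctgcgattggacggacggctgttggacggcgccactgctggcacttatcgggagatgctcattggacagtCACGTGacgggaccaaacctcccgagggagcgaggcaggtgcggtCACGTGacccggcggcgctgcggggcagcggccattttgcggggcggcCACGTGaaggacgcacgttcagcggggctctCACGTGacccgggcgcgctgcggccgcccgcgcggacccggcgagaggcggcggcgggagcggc
BAK1: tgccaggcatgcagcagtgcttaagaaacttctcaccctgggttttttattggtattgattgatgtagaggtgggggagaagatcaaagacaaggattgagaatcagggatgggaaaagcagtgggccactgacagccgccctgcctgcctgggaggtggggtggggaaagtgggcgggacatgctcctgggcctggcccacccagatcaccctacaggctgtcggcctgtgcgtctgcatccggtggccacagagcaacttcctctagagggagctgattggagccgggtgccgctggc
A copy of CACGTG was also found in promoters of BBC3 and BID. Counted by promoter, CACGTG stood in 4 of the 15, the box CCAAT in 6 of the 15, beside 34.6% of all promoters, and GGGCGG in 11 of the 15, beside 45% of all promoters. Several of the 15 overlap, such as those of BID, and are not independent. A match is a description of these letters, and no binding was measured.

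All 5 BH3-only genes had a log2 fold change above 0, where 50.7% of all probe sets did. BCL2L11 lost that sign under other scalings, and BCL2L11, BID and BBC3 each lost it in fits with 1 array left out. The median of the 5 BH3-only genes was 0.068, and none passed the test. PMAIP1, which encodes NOXA, the BH3-only protein that selectively binds MCL1, was at 9.37 and 9.30 on the control arrays and at 9.47 and 9.44 on the silenced arrays. Both silenced arrays lay above both controls and close to each other, and the log2 fold change of PMAIP1 was 0.12 (SE 0.092, interval -0.12 to 0.36). BAD, a protein that binds BCL2 and BCL-XL until phosphorylation sequesters it in the cytosol, was at 8.37 on both control arrays and at 8.39 and 8.48 on the silenced arrays. Both silenced arrays stood above the controls, replicate 1 by only 0.024. The log2 fold change of BAD was 0.068 (SE 0.093, interval -0.18 to 0.32). BID, the substrate of caspase-8 and caspase-2, was at 9.36 and 9.47 on the control arrays and at 9.58 and 9.39 on the silenced arrays. CASP2 siRNA replicate 2 fell between the controls, and the log2 fold change of BID was 0.073 (SE 0.11, interval -0.23 to 0.38).

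The remaining BH3-only genes had silenced arrays that lay on either side of the controls. BCL2L11, which encodes BIM, a binder of all anti-apoptotic members, was at 6.27 and 6.19 on the control arrays and at 6.42 and 6.05 on the silenced arrays. Its log2 fold change was 0.0052 (SE 0.15, interval -0.41 to 0.42), and it was -0.013 after quantile normalization and -0.014 with arrays centred on their medians. BBC3, which encodes PUMA, a BH3-only protein that binds all anti-apoptotic members, was at 7.31 and 7.54 on the control arrays and at 7.03 and 7.87 on the silenced arrays. The silenced arrays of BBC3 thus enclosed both controls, and their gap of 0.84 was as wide or wider in only 2.81% of all probe sets. The log2 fold change of BBC3 was 0.028 (SE 0.30, interval -0.78 to 0.84). Without CASP2 siRNA replicate 1 it was 0.45 and without replicate 2 it was -0.39, so BBC3 has no direction in these data.

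The spread between the silenced arrays exceeded that between the controls for 9 of the 10 genes, as it did for 70.1% of all probe sets. The median gap of the 10 genes was 0.035 between the control arrays and 0.14 between the silenced arrays, beside 0.087 and 0.18 over all probe sets. Over probe sets with 1 symbol at or above the median level, where all 10 genes lie, these gaps were 0.061 and 0.15. Without CASP2 siRNA replicate 2, 3 of the 10 genes (BCL2, BAK1 and BBC3) had an unadjusted p under 0.05 in limma, where 10.9% of all probe sets did, and without CASP2 siRNA replicate 1 BBC3 alone did, where 19.4% of all probe sets did. Without CASP2 siRNA replicate 2, 6 genes stood above both controls and 4 below, against 37.6% and 37% of all probe sets. None passed the adjusted test in either case.

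In array brightness, 6 of the 10 genes lay above the upper quartile of all probe sets (8.65) and 4 (BCL2, BCL2L11, BBC3 and BAD) between it and the median (6.21). The control log2 value ranged from 6.57 to 12.31 among the anti-apoptotic genes, from 8.66 to 9.95 among the effectors and from 6.23 to 9.41 among the BH3-only genes. Probe sets differ in how well their probes bind, so these are array signals and do not rank the amounts of mRNA of different genes. BCL2 and BCL2L11 lay near the median of all probe sets, where RMA compresses fold changes.

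Because family members act by binding one another, 6 pairs of an anti-apoptotic gene and a partner were followed as the difference of their log2 values on each array, expressed relative to the mean of the control arrays. For MCL1 minus PMAIP1 the control arrays stood at -0.0085 and 0.0085 and the silenced arrays at -0.16 and -0.23. The silenced arrays lay below the controls by -0.19 in the mean, and the pooled standard deviation was 0.033. For MCL1 minus BAK1 the silenced arrays stood at -0.40 and -0.14, with controls at 0.025 and -0.025. The groups did not overlap, with a mean change of -0.27 and a pooled standard deviation of 0.13. BCL2 minus BAX changed by -0.11, with silenced arrays at -0.14 and -0.067, and BCL2L1 minus BAX by 0.14, with silenced arrays at 0.20 and 0.082. Relative to BAX, the silenced cells therefore had lower BCL2 signals and higher BCL2L1 signals on both arrays. BCL2L1 minus BAD changed by 0.018 and BCL2 minus BCL2L11 by -0.17, and in both pairs the silenced arrays fell on either side of the controls. No test was made on these differences, and the pairs were chosen with earlier results of these data known. The pairs share genes, and 29.6% of all single probe sets had groups that did not overlap in one direction or the other. That share was not computed for differences between probe sets. MCL1 lay below the controls and PMAIP1 and BAK1 above them, so both MCL1 differences had to separate.

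**Figure D3:**
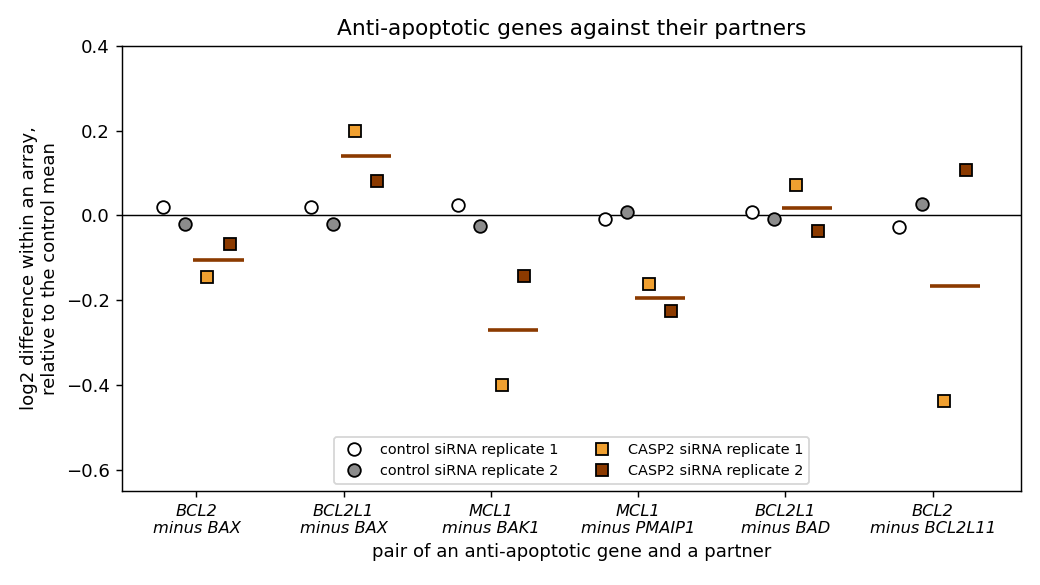
Difference between the log2 values of an anti-apoptotic gene and a partner on each array, shown on the y axis relative to the control mean for 6 pairs (x axis). Control siRNA arrays are circles, CASP2 siRNA arrays are squares, and bars are the means of the silenced arrays. The silenced arrays of MCL1 minus PMAIP1 and MCL1 minus BAK1 lie below the controls (means -0.19 and -0.27), and those of BCL2 minus BCL2L11 lie on either side.

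None of the genes around the family passed the adjusted test either. Of 53 listed genes in 8 lists, 48 are described by a probe set with a single symbol, and the others were not analysed here. Of the 48, 25 had a log2 fold change above 0 and 23 below it, with a median of 0.0020. In limma, 0 had an adjusted p under 0.05 and 1 had an unadjusted p under 0.05, where 3.03% of all probe sets did, so this count is no result about the lists. Both silenced arrays lay above both controls for 13 of the 48 and below them for 11, against 14.5% and 15.1% of all probe sets. The gene under 0.05 was YWHAH, a 14-3-3 gene whose protein family binds phosphorylated BAD, with control log2 values of 10.96 and 10.91 and silenced values of 10.65 and 10.48. Its log2 fold change of -0.37 (SE 0.11, interval -0.65 to -0.085) had the largest size of the 48, and the other 6 genes of that family ranged around a list median of -0.0048, with YWHAG at 0.031 and YWHAZ at 0.035.

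Among further relatives of the family, BCL2A1, a guardian induced by NF-kB, had a log2 fold change of -0.13 and BCL2L10 one of 0.096, both at control levels below the median of all probe sets. Of the 4 other pro-apoptotic relatives, 2 were above 0 and 2 below, with BOK at -0.064, BIK at 0.055 and HRK at -0.042. Of 7 distant relatives, 3 were above 0, among them the mitophagy receptors BNIP3 (0.12) and BNIP3L (0.15), while BECN1, an autophagy protein with a BH3 motif, was at -0.23 (interval -0.59 to 0.13). None of the genes in these 3 lists had an unadjusted p under 0.05 in limma.

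Downstream of the pores, 6 of 10 genes of mitochondrial release and the apoptosome had values below 0, with a median of -0.023. DIABLO and HTRA2 encode mitochondrial proteins that relieve the inhibition of caspases once released. DIABLO was at 8.58 and 8.70 on the control arrays and at 8.42 and 8.37 on the silenced arrays (log2 fold change -0.25, interval -0.51 to 0.011), and HTRA2 had a log2 fold change of -0.20 (-0.46 to 0.067). Both silenced arrays lay below both controls for each, as they did for 15.1% of all probe sets, while APAF1, the scaffold of the apoptosome, had 0.12 (-0.25 to 0.50) with overlapping groups. Of 6 inhibitor of apoptosis genes, 4 were above 0 with a list median of 0.042, and BIRC2 (cIAP1) had 0.22 (-0.12 to 0.56), BIRC6 0.14 (-0.11 to 0.38) and XIAP -0.12 (-0.37 to 0.13).

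Upstream, the list of transcription factors of BH3-only genes had a median of 0.014 over 8 genes. ATF4, a factor of the integrated stress response that acts on PMAIP1, had a log2 fold change of 0.22 (interval -0.054 to 0.49). That is the value of the brighter of its 2 probe sets, and the other is not shown. ATF3 had 0.15 (-0.099 to 0.39) and E2F1, a factor of S phase entry, -0.21 (-0.46 to 0.044). Of 4 enzymes of MCL1 turnover, 3 were above 0, with USP9X, which removes ubiquitin from MCL1, at 0.20 (-0.056 to 0.46) and the ubiquitin ligase subunits BTRC at 0.15 (-0.14 to 0.44) and FBXW7 at -0.34 (-0.85 to 0.17). Interferon-stimulated genes, which can respond to transfected RNA, had a median of 0.072 over 8 genes, with IFIT1 at 0.26 (-0.15 to 0.67), ISG15 at 0.18 (-0.24 to 0.61) and IRF7 at 0.17 (-0.32 to 0.66). Of the 8, 6 were above 0 and 2 below (OAS1 at -0.20 and RIGI at -0.14), and the list median relative to the control mean was 0.078 in CASP2 siRNA replicate 1 and -0.070 in replicate 2, so the list had no common direction. Their part in the values of the BCL2 family was not tested.

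**Figure D4:**
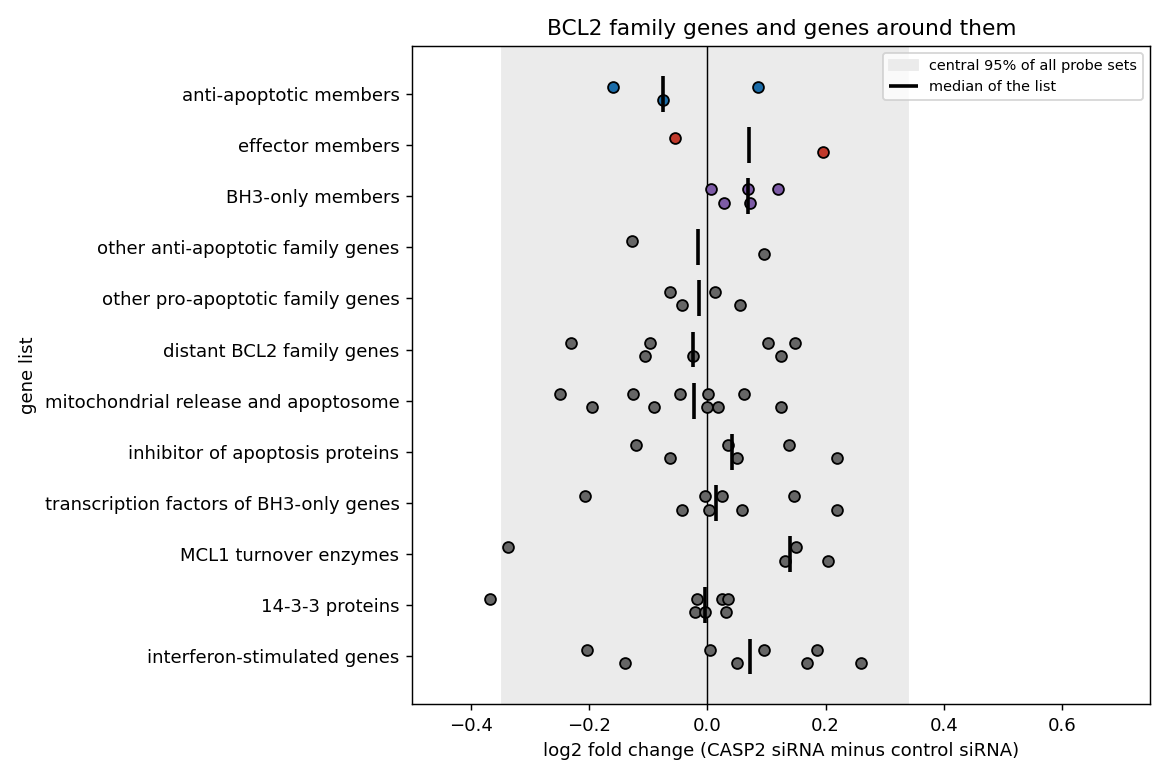
The x axis gives the log2 fold change after CASP2 silencing for the BCL2 family genes (coloured, by role) and for genes around them (grey) in each list (y axis). Each point is a gene by its brightest probe set, black bars are list medians and the grey band holds the central 95% of all probe sets. All points except YWHAH (-0.37) lie inside the band, and the list medians range from -0.075 for the anti-apoptotic genes to 0.14 for the enzymes of MCL1 turnover.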

How the data were processed

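Total RNA of 4 U87MG samples was hybridized to Affymetrix GeneChip Human Gene 1.0 ST arrays. The authors normalized the arrays by RMA and deposited log2 signals, 1 for each probe set on each array, so a fold change is a difference of log2 signals. No source used here gives the RMA version. Quantile normalization inside RMA largely removes changes shared by all genes.

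Groups and replicate numbers came from the sample titles. Symbols came from the platform annotation, updated by gene ID through RefSeq for 19128 of the 19158 probe sets with 1 symbol. All 32321 probe sets were fitted with limma 3.58.1 (lmFit and eBayes, two-sided, Benjamini-Hochberg over all) in R 4.3.3, with 2.466 prior and 2 residual degrees of freedom, and the fit was tested on simulated data. A gene in a list is represented by its brightest probe set. The 10 genes, the other lists and the pairs were chosen with earlier results of these data known. Named genes are the 10 members, CASP2 and, in each list of the pathway and in the interferon list, the 3 with the smallest p. OAS1 and RIGI are named besides, as the interferon-stimulated genes below 0, and so are some cell type markers and the microRNA precursors. No genes were named for likeness of pattern, because 4 arrays are too few. Alternatives were the methods' t-test with a minimum standard deviation, eBayes with trend and robust options, quantile normalization, median centring, no dim probe sets, probe sets with 1 symbol only, the mean of all probe sets of a gene, linear means, a replicate block and each array left out. The labels call the samples biological replicates without naming separate cultures, so p-values measure the spread between these arrays, which may be technical.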

Additional observations from a re-analysis of the deposited data

How the results depend on the processing

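With 1 array left out, the arm with a lone array is assumed to vary like the other. The number of the 10 genes with an unadjusted p under 0.05 ranged from 0 to 3 (1.1% to 19.4% of all probe sets), that of genes above the controls from 4 to 6 (26% to 39.3%) and below them from 2 to 4 (24.9% to 40.2%). Over the same omissions the median log2 fold change ranged from -0.097 to -0.027 for the anti-apoptotic genes, from 0.0068 to 0.14 for the effectors and from 0.042 to 0.14 for the BH3-only genes. BBC3 ranged from -0.39 to 0.45 and was -0.088 without control siRNA replicate 1. BCL2L11 ranged from -0.18 to 0.19 and was -0.032 without control siRNA replicate 2, and BID ranged from -0.021 to 0.17. The median of the BH3-only genes was 0.095 after quantile normalization and 0.048 with arrays centred on their medians, where 2 genes lay above both controls. BCL2L11 changed sign to -0.013 and -0.014 in these 2 settings. The cause was not tested. The number of genes past an adjusted p of 0.05 or past the thresholds of the study was 0 in every alternative that kept all 4 arrays. Of all probe sets, 0% passed that adjusted p in these fits, so this count is no result about the 10 genes. The share of all probe sets past the thresholds of the study was 0.693% in the main fit and is not given for the alternatives. The replicate numbers were checked for pairing. Across all probe sets the deviations of same-numbered arrays correlated with r = 0.020, so no shared shift was visible. The labels do not say whether same-numbered samples were handled together, and this correlation cannot decide it. Because each replicate number occurs in both groups, a replicate block cannot alter a log2 fold change, and that of CASP2 stayed at -2.06. With the block, 0 of the 10 genes passed an adjusted p of 0.05, as did 0% of all probe sets.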

Other observations

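MicroRNAs that are known to repress members of the family are also represented on the array, by probe sets for their precursors. They were chosen after the results were seen and carry no test. The mature sequences are from RefSeq (GRCh38.p14), 5′ to 3′, with the seed (bases 2 to 8) in capitals, and miR-15a-5p and miR-16-5p, which target BCL2, share theirs.
miR-15a-5p: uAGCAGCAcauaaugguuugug
miR-16-5p: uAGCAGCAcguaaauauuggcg
miR-34a-5p: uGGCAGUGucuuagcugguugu
miR-29b-3p: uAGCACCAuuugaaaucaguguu
miR-221-3p: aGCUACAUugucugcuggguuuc
MIR221, whose product is known to repress BBC3, was at 7.85 and 7.87 on the control arrays and at 7.73 and 7.51 on the silenced arrays, which is -0.24 on the log2 scale with a 95% interval from -0.55 to 0.071. Both silenced arrays lay below both controls, as in 15.1% of all probe sets. MIR16-1 had a log2 fold change of -0.10, with both silenced arrays below both controls. The control signals of MIR16-1, MIR34A and MIR29B1 lay below the lower quartile of all probe sets (4.41). MIR15A (0.10), MIR34A (0.0068) and MIR29B1 (-0.072), the last a precursor of the MCL1 repressor miR-29b, had overlapping groups. Precursor signal need not follow the amount of mature microRNA.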
